A study of Homo sapiens with 18 samples.

Results

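The subject is 10 transcription factors that set B-cell and plasma-cell identity: PAX5, EBF1, BCL6, IRF4, PRDM1, SPIB, POU2AF1, BACH2, IKZF1 and IKZF3. They were taken by gene symbol, by a rule that uses no measured value, from a list drawn up with earlier results of these data known, and are 10 of the 23686 symbols in the tables of both cell lines. Bulk RNA sequencing was done on 2 human diffuse large B-cell lymphoma lines, OCI-Ly1, known as a germinal-centre B-cell type, and TMD8, known as an activated B-cell type. Each line had 3 groups of 3 libraries: cells given 0.01% DMSO as vehicle, cells given 150 nM JIB-04 and cells given 500 nM JIB-04. JIB-04 is a small-molecule inhibitor of Jumonji-domain histone demethylases. OCI-Ly1 was kept in IMDM and TMD8 in RPMI, each with serum and antibiotics, and effects of line and medium cannot be told apart. How long the cells were treated is not among the labels. They call the 3 libraries of a group technical replicates and do not say whether cultures were separate, so the p-values below measure only the spread between these libraries, which may be technical.

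A B cell keeps its identity through PAX5 and EBF1, and passes through the germinal centre under BCL6, a repressor, with BACH2 holding back terminal differentiation. PRDM1, also called Blimp-1, ends that state and starts antibody secretion, while IRF4 acts by its amount, with high levels favouring plasma cells. SPIB is an ETS-family factor that binds DNA beside IRF4, POU2AF1 is a coactivator of the octamer-binding proteins, and IKZF1 (Ikaros) and IKZF3 (Aiolos) are zinc-finger factors of the lymphoid lineage that cereblon-binding drugs degrade.

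RefSeq promoter sequences (GRCh38.p14) were found for 8 of the 10 factors at 12 start sites. POU2AF1 and IKZF3 were not among them. The stretches below belong to factors on which the results turn: IRF4 and PAX5, whose RNA moved in opposite directions in the lines, EBF1 and BACH2, which rose in OCI-Ly1, and IKZF1, which fell in both. Each is the part of the 250 bases before a start that lies outside annotated exons, 5′ to 3′ on the gene's strand: IRF4 at chr6:391502-391738 (plus strand), PAX5 at chr9:37034269-37034518 (minus), EBF1 at chr5:159097957-159098206 (minus), BACH2 at chr6:90296909-90297093 (minus) and IKZF1 at chr7:50304466-50304668 (plus), the first of its 3 start sites. Capitals mark matches to any of the 10 motifs searched on both strands.
IRF4: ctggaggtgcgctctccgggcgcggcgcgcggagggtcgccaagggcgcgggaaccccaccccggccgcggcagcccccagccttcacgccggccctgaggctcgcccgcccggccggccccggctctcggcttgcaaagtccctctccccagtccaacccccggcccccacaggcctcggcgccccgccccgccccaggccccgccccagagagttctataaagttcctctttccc
PAX5: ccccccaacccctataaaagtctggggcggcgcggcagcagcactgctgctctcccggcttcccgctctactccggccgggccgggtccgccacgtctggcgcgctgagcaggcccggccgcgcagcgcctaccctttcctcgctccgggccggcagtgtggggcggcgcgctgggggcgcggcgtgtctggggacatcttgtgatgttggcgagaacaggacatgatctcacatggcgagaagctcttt
EBF1: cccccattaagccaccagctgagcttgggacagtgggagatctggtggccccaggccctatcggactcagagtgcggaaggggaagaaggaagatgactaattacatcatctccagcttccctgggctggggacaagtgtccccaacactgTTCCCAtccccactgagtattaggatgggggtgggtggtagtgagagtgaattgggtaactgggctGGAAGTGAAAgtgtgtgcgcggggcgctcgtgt
BACH2: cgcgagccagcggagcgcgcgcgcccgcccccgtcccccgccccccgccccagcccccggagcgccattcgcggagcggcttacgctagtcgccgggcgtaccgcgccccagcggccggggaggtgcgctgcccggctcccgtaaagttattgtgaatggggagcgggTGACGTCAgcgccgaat
IKZF1: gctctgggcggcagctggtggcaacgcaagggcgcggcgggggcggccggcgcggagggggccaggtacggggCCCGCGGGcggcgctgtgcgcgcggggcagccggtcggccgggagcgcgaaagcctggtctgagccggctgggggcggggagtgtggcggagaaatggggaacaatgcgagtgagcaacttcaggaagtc
The EBF1 stretch holds an ETS-IRF composite, GGAA and GAAA separated by any pair of bases, on which SPIB or its relative SPI1 is known to bind together with IRF4, beginning 33 bases before the start, and the Ikaros core TGGGAA on the other strand, 99 bases before it. Those letters occurred in 2.41% and 20.8% of the 35116 promoter windows of that length. BACH2 holds the cyclic-AMP response element TGACGTCA 82 bases before its start (1.65% of all windows). The palindrome of EBF, CCCNNGGG, lies 177 bases before the IKZF1 start (17.1%). No match was found in the IRF4 and PAX5 stretches. A match to TGGGAA in the IRF4 window lay at least partly in the annotated exon that is left out here. So did a match in the IKZF1 window. The other motifs were the octamer ATGCAAAT (1.63% of windows), the ETS letters CCGGAAGT (3.42%), the IRF letters GAAA and GAAA separated by any pair of bases (3.02%), the AP-1 letters TGANTCA (6.57%), the BCL6 letters TTCCNNGAA (3.86%) and the NF-kB motif (9.96%). Windows of factors not printed here also held matches. They were AP-1 letters in PRDM1 and BCL6, BCL6 letters in BCL6, and the EBF and NF-kB motifs in SPIB. Those in BCL6 lay in annotated exons. A match is a run of letters in a reference sequence and was not measured here as a bound site.

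OCI-Ly1 libraries held 17579732 to 32651115 estimated counts, and those of TMD8 held 9550092 to 20509500. The first DMSO library of TMD8 stood apart from the rest of its group: the chi-square of their counts over its degrees of freedom was 10.9 and 11.5 against the others, and 1.94 between those. Without it, 6 factors were called in TMD8 at 150 nM, and 8 besides BACH2 at 500 nM, as many as with it. The BACH2 call is set aside below. The B-lineage label was checked with 6 markers, among them PTPRC, CD79A and MS4A1: all 6 exceeded 1 TPM (transcripts per 1000000) in every library of both lines, with summed levels of 949 to 1112 TPM in OCI-Ly1 and 545 to 930 TPM in TMD8. In TMD8 that sum was 784 to 930 TPM with DMSO and 545 to 626 TPM at 500 nM. TPM fell there across genes, with a median change of -0.22 on log2(TPM + 1) over all tested genes. Of 5 T-cell markers, CD3D and CD3G exceeded 1 TPM in OCI-Ly1, where the sum was 27.2 to 29.8 TPM with DMSO and 12.3 to 14.2 TPM at 500 nM, and CD3G alone did so in TMD8. All 5 myeloid markers stayed at or under 1 TPM in each library. Erythroid markers summed to at most 1.99 TPM, and of the stromal and epithelial markers EPCAM and CDH1 exceeded 1 TPM in every OCI-Ly1 library and CDH1 in every TMD8 library, where COL1A1 ranged from 0.389 to 2.86 TPM (sums of 3.69 to 7.05 and 8.84 to 11.3 TPM). The part of such shifts in the results was not tested. In bulk RNA, fewer cells of a kind and less RNA per cell cannot be told apart.

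At 500 nM JIB-04, IRF4, BACH2, EBF1 and PAX5 rose in OCI-Ly1 while IKZF1, IKZF3, SPIB and POU2AF1 fell (edgeR's quasi-likelihood test, Benjamini-Hochberg adjusted p under 0.05 over all genes). BCL6 and PRDM1 did not pass. Over all 15638 genes tested in OCI-Ly1, 53.6% were called, 27.7% higher and 25.9% lower, against these 8 of 10 with 4 in each direction. Libraries at 500 nM and with DMSO did not overlap for 9 of the 10 factors and for 60.7% of all genes. At 150 nM the same line had 1 factor called, BACH2, which was higher, where 0.889% of all genes were called, 0.748% higher and 0.141% lower. Libraries did not overlap for 5 factors there, with 14.0% of all genes. In TMD8 at 500 nM, BCL6, EBF1 and PRDM1 rose and IKZF1, IRF4, PAX5, IKZF3 and POU2AF1 fell. SPIB was left uncalled. BACH2, at a mean of 1.15 CPM, passed the low-count filter there only through treated libraries, in which it was higher, so its call is set aside. Of all 15363 genes tested in TMD8, 60.7% were called, 29.9% higher and 30.7% lower, and libraries did not overlap for 66.4%, against 8 of the other 9 factors by either measure, 3 higher and 5 lower. At 150 nM in TMD8 the count was 6 of 10, with EBF1 and PRDM1 higher and IKZF1, IRF4, IKZF3 and PAX5 lower. The background was 44.2%, 19.2% higher and 25.0% lower. Libraries did not overlap for 6 of the 9 factors without BACH2 and for 51.4% of all genes. All 10 factors passed the low-count filter in both lines. The median log2 fold change at 500 nM was -0.05 over the 10 factors in OCI-Ly1 and -0.12 over the 9 without BACH2 in TMD8, with -0.00 and 0.04 over all tested genes.

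**Figure D1:**
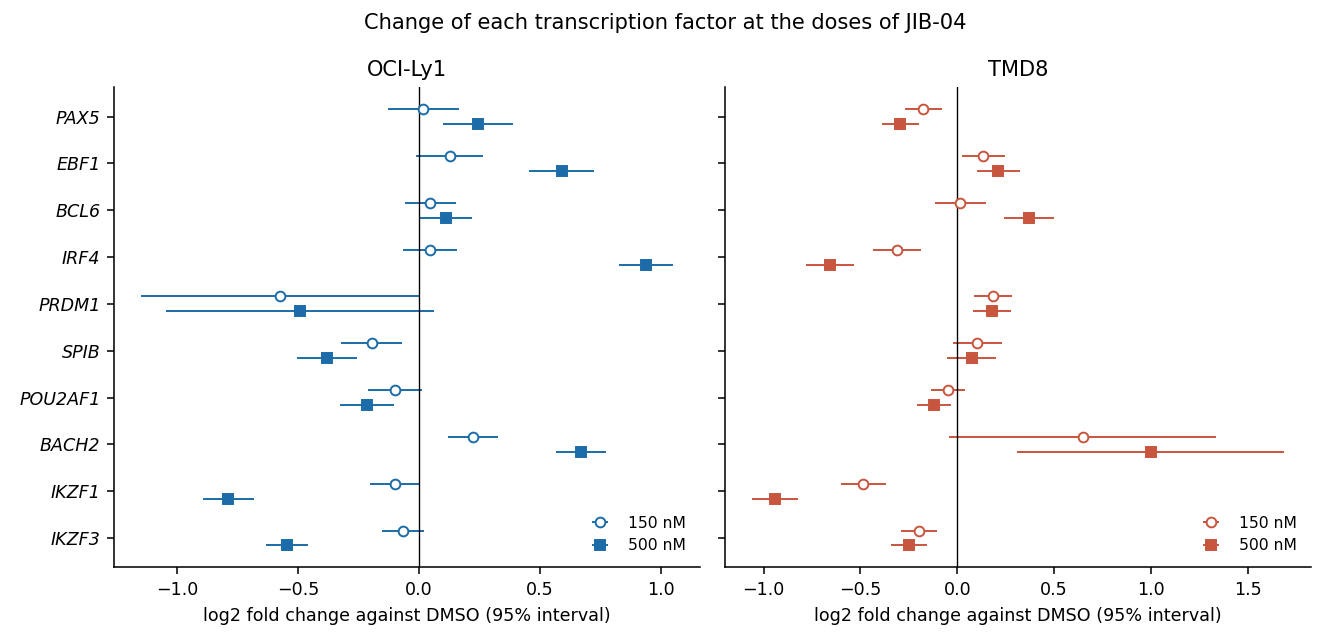
Log2 fold change against DMSO of each factor (rows) at 150 nM (open circles) and 500 nM JIB-04 (filled squares) in OCI-Ly1 and TMD8, with 95% intervals from edgeR. IRF4 lies at 0.94 in OCI-Ly1 and -0.66 in TMD8 at 500 nM, and IKZF1 lies at -0.79 and -0.94. BACH2 in TMD8 is drawn with its intervals, but its call at 500 nM is set aside, so the interval there is not read as a test.

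The scale of measurement bears on the rises in TMD8. On log2(TPM + 1) the median of all tested genes at 500 nM was -0.22, and limma called 6 of the factors, all of them lower, where edgeR on counts called 3 higher and 5 lower besides BACH2. Over all tested genes limma on that scale called 1751 higher and 7581 lower. One short RNA, MIR3687, took 16.1% to 17.3% of all TPM in TMD8 with DMSO and 19.1% to 24.3% at 500 nM. Its part in the difference of scales was not tested. In OCI-Ly1, where 4 factors were called higher and 4 lower on counts, log2(TPM + 1) gave 5 and 3, and the same scale centred on each library's median gave 3 and 5. Over all tested genes of that line, limma called 5739 higher and 2240 lower before centring, and 2902 and 6079 after it.

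IRF4 rose in OCI-Ly1 and fell in TMD8. In OCI-Ly1 its normalised read count (counts per 1000000 after TMM scaling, CPM) was 244, 230 and 217 CPM in the DMSO libraries, 233, 232 and 248 at 150 nM, then 455, 446 and 422 at 500 nM. The 500 nM libraries all lay above the other 6, and the 150 nM and DMSO libraries overlapped. The log2 fold change was 0.94 ± 0.05 (SE) at 500 nM (edgeR adjusted p = 1.1e-10) and 0.05 ± 0.05 at 150 nM (adjusted p = 0.83). In TMD8, whose level is far higher, the libraries held 2902, 2655 and 2647 CPM with DMSO, 2364, 2165 and 2078 at 150 nM, then 1739, 1733 and 1732 at 500 nM. The 3 groups followed the dose downward without overlap. The log2 fold change was -0.31 ± 0.06 at 150 nM (edgeR adjusted p = 2.9e-04) and -0.66 ± 0.06 at 500 nM (adjusted p = 2.5e-08). Between the doses, IRF4 was also called, higher at 500 nM in OCI-Ly1 (log2 0.89) and lower in TMD8 (-0.34). In those dose-to-dose comparisons 7 of 10 factors were called in OCI-Ly1, 4 higher and 3 lower, where 46.2% of all genes were called, 25.1% higher and 21.1% lower. In TMD8 3 of 10 were called, BCL6 higher and IKZF1 and IRF4 lower, where 28.7% of all genes were called, 13.7% higher and 15.0% lower. The libraries of the doses did not overlap for 8 factors in OCI-Ly1 and 7 in TMD8, with 55.6% and 44.8% of all genes.

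PRDM1, the repressor that ends the B-cell program, was nearly silent in OCI-Ly1 and abundant in TMD8. OCI-Ly1 libraries held 1.47, 2.99 and 2.18 CPM with DMSO, 1.49, 1.49 and 1.38 at 150 nM, then 1.76, 1.2004 and 1.65 at 500 nM, which are 26 to 59 counts. The groups overlapped, and the log2 fold change at 500 nM of -0.49 ± 0.26 was not called (edgeR adjusted p = 0.13), although without the first DMSO library it was -0.73 with an adjusted p of 0.031. Limma on the centred TPM scale also called it lower (adjusted p = 0.011). In TMD8 the values were 402, 371 and 372 CPM with DMSO, 423, 433 and 443 at 150 nM, then 426, 429 and 441 at 500 nM. Every treated library lay above every DMSO library, with no difference called between the doses. The rise was 0.18 ± 0.05 on the log2 scale at each dose (edgeR adjusted p = 4.2e-03 at 150 nM and 3.2e-03 at 500 nM). On log2(TPM + 1) the 500 nM value turned to -0.19 and the 150 nM value was 0.03, neither called, and on the centred TPM scale the 150 nM call was lost (0.12, adjusted p = 0.063). The 500 nM call in TMD8 held in 11 of 14 alternatives. Of the others, 2 turned sign and 1 kept the sign without a call.

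BCL6, the repressor that defines the germinal-centre state, rose in TMD8 only at the higher dose. TMD8 libraries held 50.03, 44.0 and 45.02 CPM with DMSO, 45.2, 45.7 and 49.2 at 150 nM, then 58.9, 58.6 and 62.1 at 500 nM. The 500 nM libraries stood apart from the other 6, giving a log2 fold change of 0.37 ± 0.06 (edgeR adjusted p = 5.1e-05). That value was -0.01 on log2(TPM + 1). In OCI-Ly1 BCL6 was at 221, 209 and 215 CPM with DMSO, 220, 212 and 235 at 150 nM, then 232, 232 and 234 at 500 nM. The 500 nM libraries lay narrowly above those of DMSO, and the change of 0.11 ± 0.05 was not called (edgeR adjusted p = 0.072). It was called with library size as the only scaling (0.20, adjusted p = 2.7e-03), on both uncentred TPM scales, and in a fit of the compared groups alone (0.12, adjusted p = 0.036).

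BACH2, a repressor of PRDM1, rose with dose in OCI-Ly1 and was close to undetected in TMD8. In OCI-Ly1 the libraries held 194, 194 and 195 CPM with DMSO, 232, 223 and 225 at 150 nM, then 291, 317 and 318 at 500 nM. The 3 groups did not overlap. BACH2 changed by a log2 of 0.22 ± 0.05 at 150 nM (edgeR adjusted p = 0.035) and 0.67 ± 0.05 at 500 nM (adjusted p = 3.5e-09). The call at 150 nM was lost in 9 of 14 alternatives, among them leaving out any 1 of the 3 DMSO libraries, or the second or the third 150 nM library (adjusted p 0.055 to 0.14), at values between 0.21 and 0.25. In TMD8 BACH2 had 8, 10 and 12 counts with DMSO, 12, 9 and 22 at 150 nM, then 17, 12 and 14 at 500 nM, or 0.51 to 0.60 CPM with DMSO and 0.90 to 1.43 CPM at 500 nM. The 500 nM libraries lay above those of DMSO in CPM. Since it passed the low-count filter only through treated libraries, its log2 value of 0.998 ± 0.33 is given without a test. That value was 0.04 on log2(TPM + 1) and 0.85 without the third 500 nM library.

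PAX5, the factor that commits cells to the B lineage, moved in opposite directions, by less than IRF4. In OCI-Ly1 it was at 99.8, 105 and 91.3 CPM with DMSO, 108, 92.04 and 99.9 at 150 nM, then 113, 125 and 113 at 500 nM. Only the 500 nM libraries lay above all others, with a log2 fold change of 0.24 ± 0.07 (edgeR adjusted p = 6.2e-03). On the centred TPM scale it was 0.15 and not called (adjusted p = 0.10). In TMD8 the libraries held 480, 507 and 503 CPM with DMSO, 455, 436 and 429 at 150 nM, then 402, 406 and 406 at 500 nM. The groups descended with dose and did not overlap. PAX5 in TMD8 had log2 fold changes of -0.18 ± 0.05 at 150 nM (edgeR adjusted p = 4.4e-03) and -0.29 ± 0.05 at 500 nM (adjusted p = 2.0e-05). The 150 nM call was lost with library size as the only scaling (-0.09) and in a fit of the compared groups alone (-0.14, adjusted p = 0.056).

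EBF1, which acts with PAX5 to open B-cell genes, was higher at 500 nM in both lines on the count scale. OCI-Ly1 libraries held 81.4, 76.3 and 86.4 CPM with DMSO, 81.7, 91.005 and 94.2 at 150 nM, then 117, 125 and 125 at 500 nM. The 500 nM libraries were apart from the rest, and the log2 fold change was 0.59 ± 0.06 (edgeR adjusted p = 6.3e-07). In TMD8 EBF1 was at 196, 173 and 175 CPM with DMSO, 200.5, 204 and 191 at 150 nM, then 210.0, 207 and 212 at 500 nM. The first DMSO library lay within the 150 nM range and below the 500 nM range. EBF1 in TMD8 had log2 fold changes of 0.13 ± 0.05 at 150 nM (edgeR adjusted p = 0.045) and 0.21 ± 0.05 at 500 nM (adjusted p = 2.0e-03). On log2(TPM + 1) both turned, to -0.02 and -0.16, and the 150 nM call was lost without the second or the third DMSO library (adjusted p = 0.20 and 0.17) or the first or second 150 nM library (0.09 and 0.17). At 500 nM the EBF1 call in TMD8 held in 11 of 14 alternatives. Of the rest, 2 turned sign and 1 kept the sign without a call.

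SPIB, the ETS partner of IRF4, fell in OCI-Ly1, where the libraries held 95.5, 96.7 and 88.1 CPM with DMSO, 85.9, 81.8 and 76.5 at 150 nM, then 71.4, 71.1 and 72.7 at 500 nM. The groups descended with dose without overlap. The log2 fold change was -0.20 ± 0.06 at 150 nM, not called (edgeR adjusted p = 0.18), and -0.38 ± 0.06 at 500 nM (adjusted p = 3.5e-05). In TMD8 SPIB stood at 983, 1145 and 1181 CPM with DMSO, 1161, 1214 and 1180 at 150 nM, then 1128, 1183 and 1171 at 500 nM. The first DMSO library was the lowest of the 9, and the groups overlapped. The change of 0.07 ± 0.06 at 500 nM was not called (edgeR adjusted p = 0.31). It was 0.16 with library size as the only scaling (adjusted p = 0.033), -0.30 on log2(TPM + 1) (adjusted p = 0.015) and -0.01 without the first DMSO library.

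POU2AF1, the coactivator of OCT1 and OCT2, changed least among the factors called lower. It was at 191, 199 and 188 CPM with DMSO, 183, 178 and 176 at 150 nM, then 156, 167 and 175 at 500 nM, all in OCI-Ly1. In TMD8 the values were 161, 167 and 165 CPM with DMSO, 158, 159 and 161 at 150 nM, then 150, 153 and 152 at 500 nM. In both lines all 500 nM libraries lay below all DMSO libraries. POU2AF1 changed at 500 nM by a log2 of -0.21 ± 0.05 in OCI-Ly1 (edgeR adjusted p = 2.5e-03) and -0.12 ± 0.04 in TMD8 (adjusted p = 0.020). Both calls were lost with library size as the only scaling (-0.13 and -0.03), and the OCI-Ly1 call on the uncentred TPM scales as well (-0.08 on each). The TMD8 call was also lost without the second or the third DMSO library or the first 500 nM library (adjusted p 0.052 to 0.076).

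IKZF1 fell in both lines, and in TMD8 already at 150 nM. OCI-Ly1 libraries held 420, 413 and 409 CPM with DMSO, 376, 384 and 398 at 150 nM, then 226, 254 and 239 at 500 nM. The 150 nM libraries lay just under DMSO and the 500 nM libraries far under both. IKZF1 in OCI-Ly1 had log2 fold changes of -0.10 ± 0.05 at 150 nM (edgeR adjusted p = 0.51) and -0.79 ± 0.05 at 500 nM (adjusted p = 4.2e-10). In TMD8 the values were 941, 853 and 854 CPM with DMSO, 672, 633 and 588 at 150 nM, then 467, 460 and 453 at 500 nM. The 3 groups descended with dose without overlap. In TMD8 they were -0.48 ± 0.06 at 150 nM (edgeR adjusted p = 2.4e-06) and -0.94 ± 0.06 at 500 nM (adjusted p = 1.9e-10), so that the level at 500 nM was 0.521 times that with DMSO in TMD8 and 0.579 times in OCI-Ly1.

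IKZF3 fell in both lines at 500 nM, farther in OCI-Ly1 on the count scale. OCI-Ly1 libraries held 645, 644 and 616 CPM with DMSO, 605, 602 and 612 at 150 nM, then 429, 438 and 437 at 500 nM. TMD8 had 684, 679 and 666 CPM with DMSO, then 600, 588 and 581 at 150 nM, then 563, 571 and 573 at 500 nM. The OCI-Ly1 drop came between 150 and 500 nM, while the TMD8 libraries at 150 nM were already below DMSO and lay close above those at 500 nM. The log2 fold change at 500 nM was -0.55 ± 0.04 in OCI-Ly1 (edgeR adjusted p = 5.5e-09) and -0.25 ± 0.04 in TMD8 (adjusted p = 8.0e-05). At 150 nM it was -0.07 ± 0.04 (adjusted p = 0.63) and -0.20 ± 0.04 (adjusted p = 1.3e-03).

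**Figure D2:**
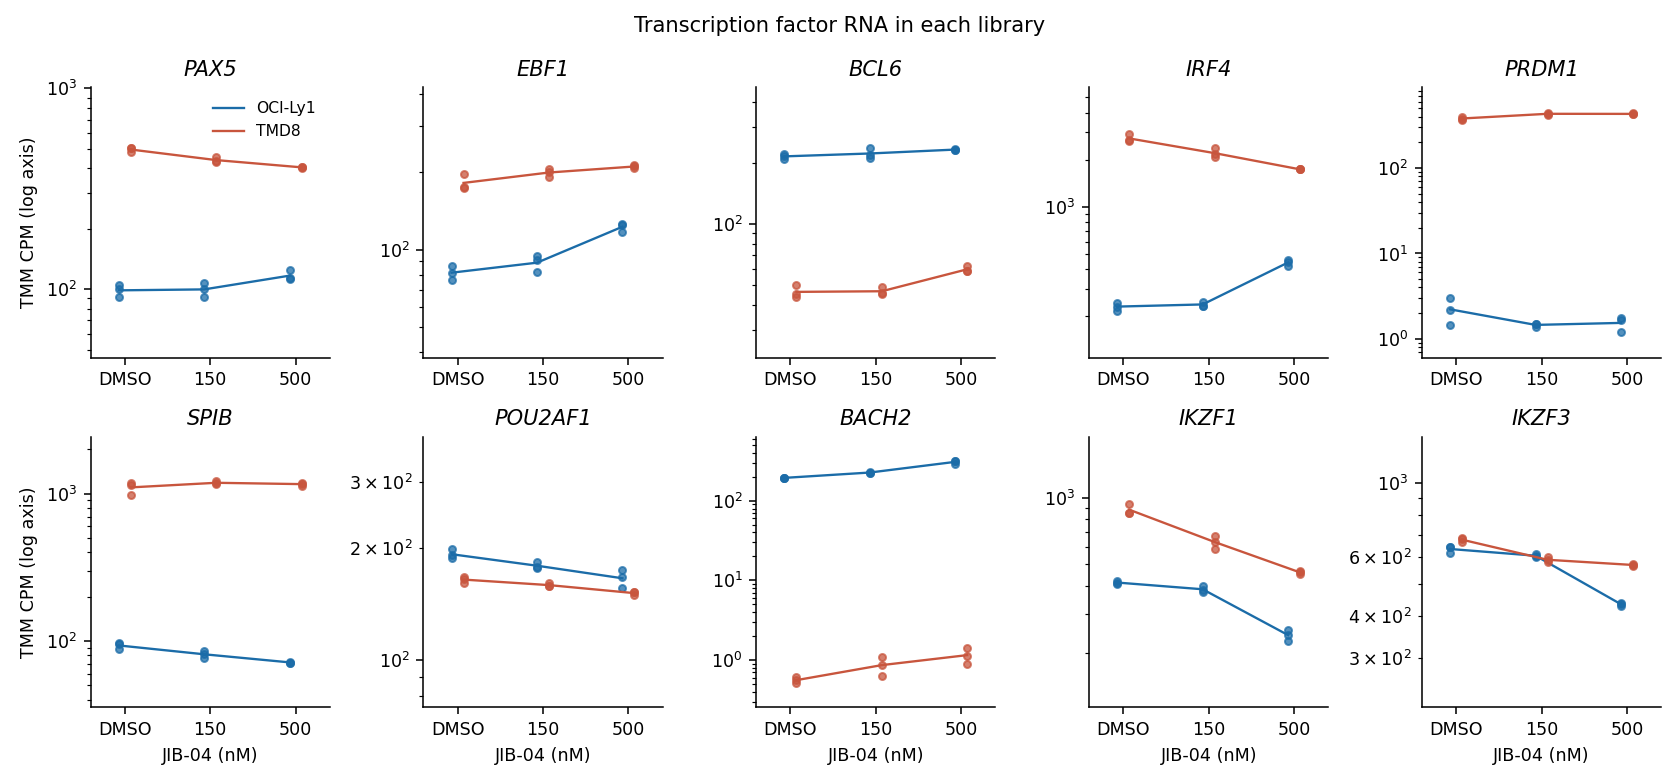
TMM-scaled CPM of each factor in each library (points) by JIB-04 dose, with lines through the group means of 3 libraries, on log axes that differ between panels. IRF4 in TMD8 descends from a mean of 2735 to 1735 CPM while in OCI-Ly1 it climbs from 230 to 441 CPM at 500 nM.

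The lines were then compared directly in a fit of all 18 libraries, by subtracting the log2 fold change of TMD8 from that of OCI-Ly1. At 500 nM the difference was called for 7 of 10 factors, 3 higher and 4 lower, where 46.4% of all 16604 tested genes were called, 28.2% higher and 18.1% lower. IRF4 had the widest of the called differences, 1.62 ± 0.08 on the log2 scale (edgeR adjusted p = 4.8e-14), and the other differences higher in OCI-Ly1 were PAX5 at 0.57 ± 0.08 (adjusted p = 5.1e-06) and EBF1 at 0.41 ± 0.09 (adjusted p = 4.2e-04). These 3 kept their sign and call in all 20 alternatives. The change was lower in OCI-Ly1 for PRDM1 (-0.60 ± 0.20, adjusted p = 0.014), SPIB (-0.42 ± 0.09, adjusted p = 2.2e-04), IKZF3 (-0.27 ± 0.06, adjusted p = 1.3e-03) and BCL6 (-0.23 ± 0.08, adjusted p = 0.023). On log2(TPM + 1) all of these 4 turned sign, to 0.07, 0.06, 0.20 and 0.25, none of them called. The PRDM1 difference was lost without the second DMSO or the second 500 nM library of OCI-Ly1 (-0.36 and -0.46), and that of BCL6 without the first DMSO library of OCI-Ly1 or the second DMSO, the third DMSO or the third 500 nM library of TMD8 (-0.19 to -0.21).

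For POU2AF1, BACH2 and IKZF1 no difference between the lines was called at 500 nM on counts. The 95% intervals were -0.20 to 0.08 for POU2AF1, -0.87 to 0.28 for BACH2 and 0.01 to 0.35 for IKZF1, on the log2 scale. Limma on log2(TPM + 1) called both POU2AF1 and BACH2 with the sign turned, at 0.41 (adjusted p = 2.1e-03) and 0.75 (adjusted p = 3.0e-06). On the centred scale POU2AF1 was at -0.05, not called, and BACH2 at 0.30 (adjusted p = 5.4e-03), and the BACH2 values rest on its few counts in TMD8. The IKZF1 difference of 0.18 ± 0.08 (edgeR adjusted p = 0.070) was called in 8 of 20 alternatives, DESeq2 among them (0.21, adjusted p = 0.035). At 150 nM 4 of 10 differences were called, 2 in each direction, where 23.3% of all genes were called, 15.0% higher and 8.33% lower. The difference was 0.39 ± 0.08 for IKZF1 (edgeR adjusted p = 9.9e-04) and 0.36 ± 0.08 for IRF4 (adjusted p = 2.4e-03), while the differences of PRDM1 (-0.72 ± 0.21) and SPIB (-0.29 ± 0.09) had the other sign (adjusted p = 0.013 for each). The PRDM1 value at 150 nM was -0.48 without the second DMSO library of OCI-Ly1 and then not called (adjusted p = 0.096), and on log2(TPM + 1) neither the PRDM1 (-0.19) nor the SPIB value (-0.12) was called.

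**Figure D3:**
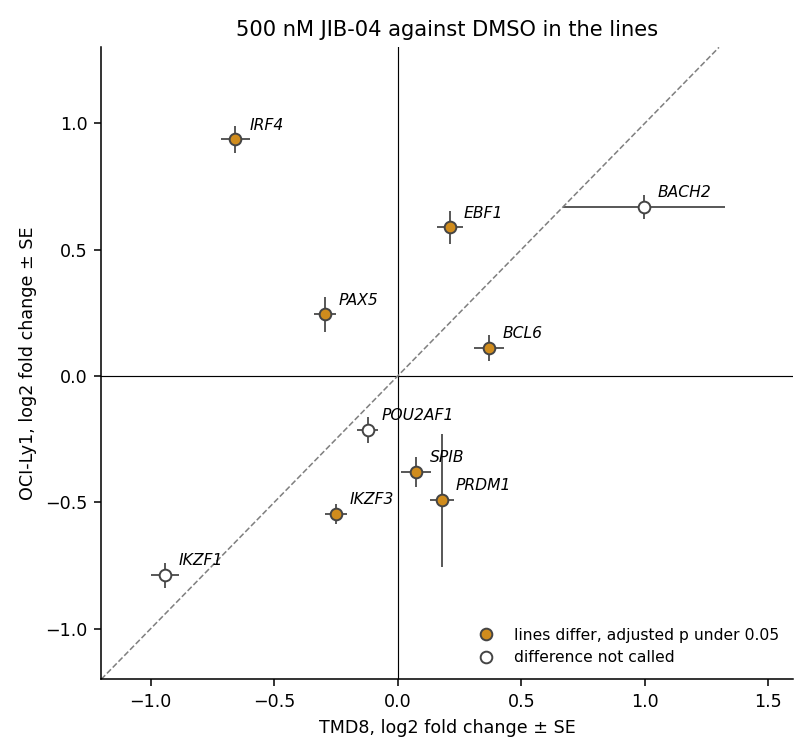
Log2 fold change at 500 nM against DMSO in TMD8 (horizontal) and OCI-Ly1 (vertical), with SE bars. Filled points mark the 7 factors whose change differed between lines, and the dashed line marks equal change. IRF4 and PAX5 lie in the upper left, higher in OCI-Ly1 and lower in TMD8.

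With DMSO alone, 9 of 10 factors differed between OCI-Ly1 and TMD8, 2 higher and 7 lower in OCI-Ly1, where 76.7% of all tested genes did, 37.8% higher and 39.0% lower. Libraries did not overlap for any of the 10 factors and for 76.4% of all genes. Scaled over all 18 libraries, BACH2 was at 187 ± 0.898 CPM (SD, n = 3) in OCI-Ly1 and 0.583 ± 0.046 in TMD8, a log2 difference of 8.30 ± 0.11 (edgeR adjusted p = 1.4e-29). BCL6 was also higher in OCI-Ly1 (2.10 ± 0.06, adjusted p = 2.5e-22). PRDM1 was at 2.13 ± 0.728 CPM in OCI-Ly1 and 400 ± 21.5 in TMD8, a log2 difference of -7.60 ± 0.10 (edgeR adjusted p = 5.8e-29). IRF4 (-3.69 ± 0.07), SPIB (-3.68 ± 0.07), PAX5 (-2.45 ± 0.06), EBF1 (-1.27 ± 0.06) and IKZF1 (-1.21 ± 0.06) were likewise lower in OCI-Ly1, with edgeR adjusted p-values of 1.3e-16 or less. With limma on log2(TPM + 1) the PAX5, EBF1 and IKZF1 values shrank to -1.46, -0.29 and -0.25, still called. IKZF3 was lower by the count scale (-0.21 ± 0.04, adjusted p = 1.1e-04) and higher on log2(TPM + 1) (0.76), where the median of all tested genes was 0.61. POU2AF1 was not called (0.10 ± 0.05, adjusted p = 0.055), and its TPM difference was 1.05 before centring and 0.33 after it. In these libraries BACH2 and BCL6 were thus higher in the germinal-centre-type line. IRF4, PRDM1, SPIB, PAX5, EBF1 and IKZF1 were higher in the activated-type line.

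TPM corrects for transcript length and orders the factors within a line. With DMSO the OCI-Ly1 levels were 86.2 ± 1.74 TPM (SD, n = 3) for IKZF1, 84.1 ± 0.729 for IKZF3, 83.03 ± 1.001 for POU2AF1, 79.4 ± 3.21 for BCL6 and 55.1 ± 2.59 for IRF4. Below them came PAX5 (35.03 ± 1.64), SPIB (34.6 ± 0.878), BACH2 (26.7 ± 0.785), EBF1 (19.7 ± 1.72) and PRDM1 (0.552 ± 0.174). IKZF1, IKZF3 and POU2AF1 overlapped with their neighbours in this order, as did PAX5 and SPIB. At 500 nM IRF4 moved from the fifth to the first place at 116 ± 3.56 TPM, above BCL6 at 94.001 ± 3.21, and IKZF1 from the first to the fifth at 55.02 ± 4.72. In TMD8 with DMSO the order was IRF4 (365 ± 52.01 TPM), SPIB (225 ± 3.06), IKZF1 (104 ± 15.1), PAX5 (97.9 ± 5.64), PRDM1 (53.4 ± 7.27), IKZF3 (49.4 ± 4.80), POU2AF1 (39.5 ± 2.74), EBF1 (24.5 ± 3.98), BCL6 (9.48 ± 1.52) and BACH2 (0.043 ± 0.0011). IKZF1 and PAX5 overlapped, as did PRDM1 and IKZF3. At 500 nM IRF4 (178 ± 10.9 TPM) and SPIB (184 ± 15.2) overlapped at the top.

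**Figure D4:**
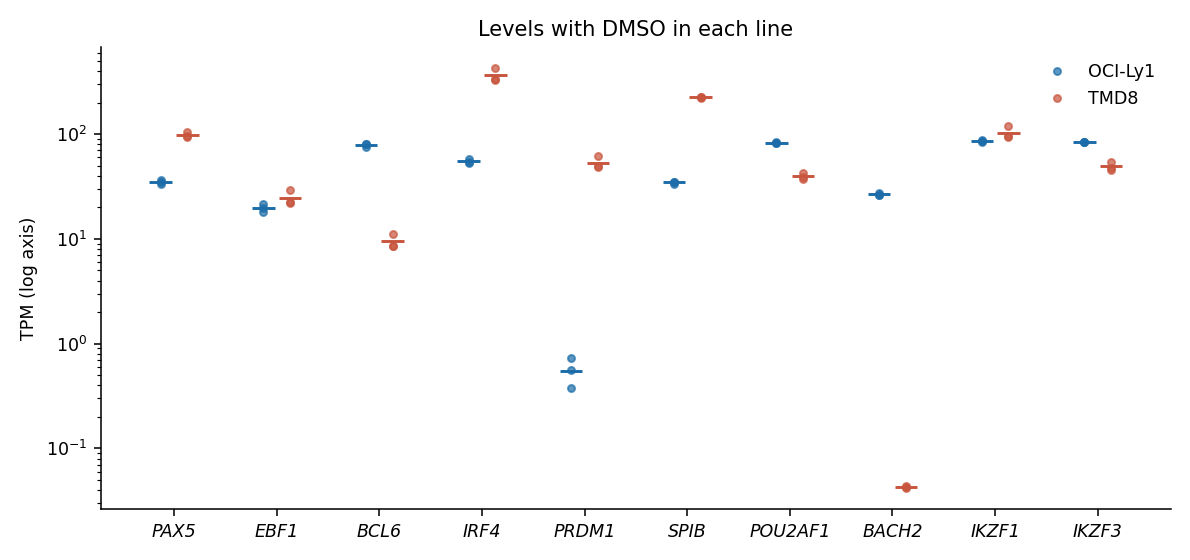
TPM of each factor with DMSO in the 3 libraries of each line (points) and their mean (bars), on a log axis. BACH2 in TMD8 and PRDM1 in OCI-Ly1 lie under 1 TPM.

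As a description, the genes whose log2 CPM tracked each factor most closely over the 18 libraries, centred on the line means, were sought among 9948 or 9949 others tested in both lines. Those others averaged at least 5 CPM in each line. The points share libraries and dose groups. IKZF1 ran with the histone genes HIST1H1D and HIST1H2AM (Pearson r = 0.996 and 0.995), and IKZF3 with VCP and HIST1H2AC (0.991 and 0.990). Reads of histone genes can be split among near-identical copies, so their symbols are uncertain. IRF4, with its opposite course in the lines, ran with NGRN (0.980) and ZNF598 (0.971), EBF1 with CYLD (0.972), and BCL6 with COG3 (0.947) and KDM1B (0.920). PAX5 ran with TAF6 (0.940), POU2AF1 with CNN2 (0.939), SPIB with ORAI2 (0.930) and BACH2 with MBD6 (0.925). PRDM1 had the weakest first neighbour, NABP1 at 0.843. The r values of PRDM1 and BACH2 are limited by few counts, 26 to 59 per OCI-Ly1 library and 8 to 22 per TMD8 library.

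Genes tied to these factors were read from 6 lists of 107 genes in all, all of them in the tables, JCHAIN under its older symbol IGJ. Their counts are set beside the shares of all tested genes at 500 nM, 27.7% higher and 25.9% lower in OCI-Ly1 and 29.9% and 30.7% in TMD8. On log2(TPM + 1) limma called 5739 of all genes higher and 2240 lower in OCI-Ly1, and 1751 and 7581 in TMD8. The centred TPM scale gave 2902 and 6079 in OCI-Ly1. Library size as the only scaling gave 5679 and 3883 in TMD8. Among paralogues and partner proteins, 9 rose and 10 fell of 25 tested in OCI-Ly1 at 500 nM (36% and 40%), with a median log2 fold change of 0.03. In that line MEF2B, an activator of BCL6, rose by 0.81 ± 0.08, while POU2F1 and POU2F2, the octamer proteins that POU2AF1 serves, fell by 0.67 ± 0.07 and 0.65 ± 0.09. In TMD8, 10 rose and 8 fell of 26 (38.5% and 30.8%, median 0.04). BACH1, the paralogue of BACH2, rose there by 1.25 ± 0.07 and MAFG, a small MAF protein that pairs with BACH proteins, by 1.23 ± 0.05. The changes of the 8 that fell in TMD8 are not given here. The counts of this list on log2(TPM + 1) were 2 higher and 16 lower in TMD8, and turned to 12 higher and 6 lower in OCI-Ly1.

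B-cell identity genes, many of them bound by PAX5 and EBF1, were called lower in 10 of 17 tested and higher in 3 in OCI-Ly1 at 500 nM, 58.8% and 17.6% against 25.9% and 27.7% of all genes, with a median of -0.32. CD37, a tetraspanin, fell by 0.74 ± 0.10 and BANK1, a B-cell receptor scaffold, by 0.73 ± 0.07, while BLK, a B-cell kinase, rose by 0.22 ± 0.06 (edgeR adjusted p = 2.8e-03). In TMD8 4 rose and 7 fell of 17 (23.5% and 41.2% against 29.9% and 30.7%, median -0.06). MS4A1, which encodes CD20, fell there by 0.49 ± 0.06 and BLK by 0.62 ± 0.08. CD37 rose in TMD8 by 0.42 ± 0.05 (edgeR adjusted p = 2.9e-06), a rise of 0.05 on log2(TPM + 1). The 12 genes of the list that limma called on that scale in TMD8 were all lower. Over all genes there, that scale gave 1751 higher and 7581 lower. With library size as the only scaling 6 rose and 6 fell there.

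Of 12 germinal-centre genes tested, 2 rose and 6 fell in OCI-Ly1 at 500 nM, 16.7% and 50% against 27.7% and 25.9% of all genes (median -0.30, and 4 up and 5 down on log2(TPM + 1)). In TMD8 3 rose and 7 fell, 25.0% and 58.3% against 29.9% and 30.7% (median -0.23). Among the fallers, RGS13, a regulator of G-protein signalling, fell by 1.03 ± 0.10 in OCI-Ly1, and ELL3 by 0.95 ± 0.05. In TMD8 SERPINA9, a serpin of germinal-centre cells, fell by 1.72 ± 0.11 and LMO2 by 1.47 ± 0.09. The 2 genes of the list that rose in OCI-Ly1 and the 3 that rose in TMD8 are not named here.

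Of 19 plasma-cell genes tested in OCI-Ly1, 10 rose and 7 fell, 52.6% and 36.8% against 27.7% and 25.9% of all genes (median 0.36). In TMD8 11 rose and 6 fell of 20, 55.0% and 30.0% against 29.9% and 30.7% (median 0.23, and -0.14 on log2(TPM + 1) with 6 up and 8 down), so that the share lower there was near that of all genes. ERN1, which encodes the stress sensor IRE1, rose by 3.22 ± 0.12 in OCI-Ly1 and 2.21 ± 0.12 in TMD8 (edgeR adjusted p = 1.6e-13 and 3.1e-11). XBP1, the factor that IRE1 splices, rose by 1.70 ± 0.12 in OCI-Ly1 from 6.88 ± 0.669 to 22.5 ± 2.62 CPM (SD, n = 3). SDC1, the plasma-cell surface marker CD138, rose by 2.78 ± 0.15 in TMD8, from 2.29 ± 0.275 to 15.8 ± 0.601 CPM. Fallers included MZB1 (0.85 ± 0.06) and HSP90B1 (0.71 ± 0.05), both chaperones of antibody secretion, in OCI-Ly1, and PRDX4 (0.78 ± 0.08) in TMD8. In OCI-Ly1 the centred TPM scale gave 8 up and 8 down.

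Of 15 genes known as repressed by BCL6, 8 rose and 1 fell in OCI-Ly1, 53.3% and 6.67% against 27.7% and 25.9% of all genes (median 0.20). In TMD8 5 rose and 8 fell of 17, 29.4% and 47.1% against 29.9% and 30.7% (median -0.11), so that the share higher there was near that of all genes. The centred TPM scale gave 6 up and 3 down in OCI-Ly1, and library size as the only scaling 6 up and 7 down in TMD8. CDKN1A, the cell-cycle inhibitor p21, rose in both, by 3.05 ± 0.07 from 17.1 ± 0.759 to 142 ± 2.47 CPM in OCI-Ly1 and by 1.48 ± 0.06 in TMD8. BCL2, an inhibitor of apoptosis, rose by 1.02 ± 0.05 in TMD8, and CD69, an activation marker, by 1.23 ± 0.11 in OCI-Ly1. CCND2, a cyclin, fell by 0.60 ± 0.06 in TMD8. BCL6 itself was uncalled in OCI-Ly1 and higher in TMD8 on the count scale.

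Of 11 activated B-cell-type lymphoma genes, 5 rose and 3 fell in OCI-Ly1 (45.5% and 27.3% against 27.7% and 25.9% of all genes) and 5 rose and 5 fell in TMD8 (45.5% each against 29.9% and 30.7%), with medians of 0.13 and -0.00. BATF, an AP-1 factor that works with IRF4, rose by 0.96 ± 0.21 in OCI-Ly1 (edgeR adjusted p = 7.8e-04) and fell by 0.89 ± 0.05 in TMD8 (adjusted p = 1.8e-10), the directions that IRF4 took. A link between the changes of BATF and IRF4 was not tested. With DMSO, 10 of the 11 were lower in OCI-Ly1 than in TMD8, 90.9% against 39.0% of all genes. PTPN1 fell in TMD8 by 0.47 ± 0.05, and FOXP1 rose there by 0.40 ± 0.05, or by 0.07 on log2(TPM + 1). The 7 genes of the list that limma called on that scale in TMD8 were all lower, beside 1751 higher and 7581 lower over all genes.

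**Figure D5:**
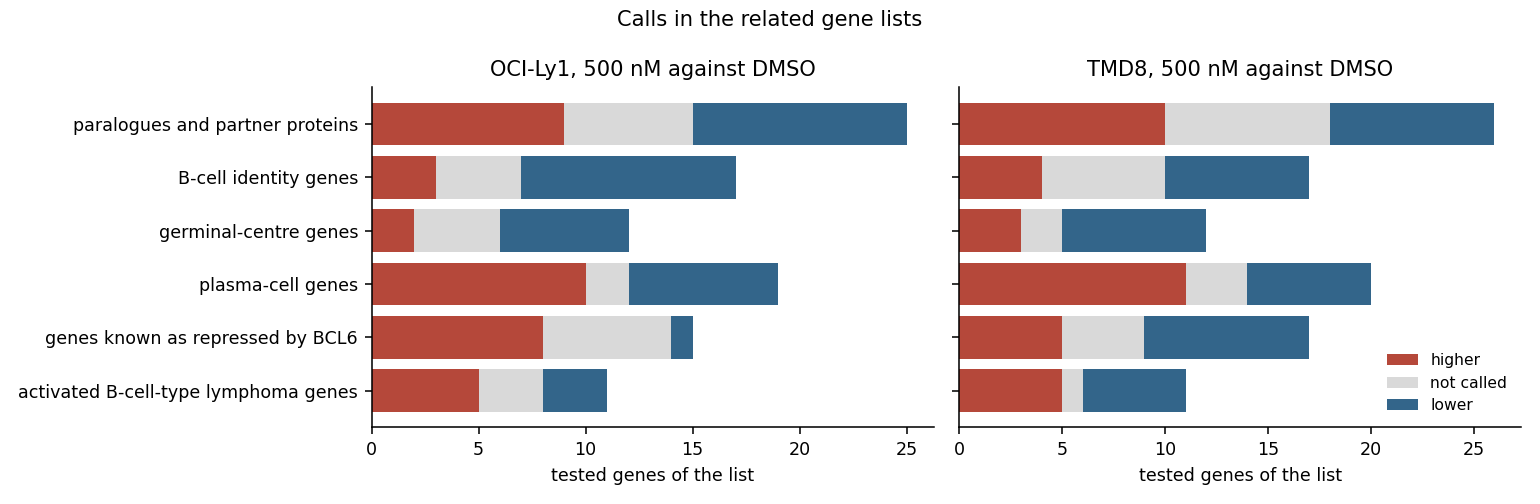
Number of tested genes of each related list called higher (red), called lower (blue) or not called (grey) at 500 nM against DMSO in each line, by edgeR. Genes known as repressed by BCL6 were 8 higher and 1 lower in OCI-Ly1, and in TMD8 5 higher and 8 lower, or 2 and 11 on log2(TPM + 1). On that scale 1751 of all genes were called higher and 7581 lower in TMD8.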

How the data were processed

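RNA of the cells was depleted of ribosomal RNA and sequenced as paired-end libraries, 3 technical libraries for each of 6 groups, per the labels' protocols. For each line the authors deposited a table of estimated counts per gene symbol, unscaled for depth, and a table of TPM, which sums to 1000000 in each library. The submitters' processing notes name kallisto 0.46.0, R 4.3.1, DESeq2 1.40.2 and hg19, without roles. The annotation, the step from transcripts to genes and the use of strand are not given in the sources used here.

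Estimated counts were rounded to whole numbers and tested with edgeR 4.0.16 (quasi-likelihood, R 4.3.3) after TMM scaling and its filter on low counts. Libraries of a line, 9 in number, were fitted together, and all 18 for differences between lines. Benjamini-Hochberg adjustment ran over all tested genes of a comparison, and genes were called under 0.05. An SE is the absolute log2 fold change over the square root of F. The fit was tested on simulated data. Alternatives were library size as the only scaling, DESeq2 1.42.0, no filter, limma 3.58.1 on TPM with pseudocounts of 1 and 0.1 and centred on library medians, a replicate block, a fit of the compared groups, and leaving out each library. Same-group libraries differed by more than sampling noise (chi-square over its degrees of freedom 1.65 to 11.5 in 18 pairs), and each was kept.

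All 10 factors are named. From each related list the rule took at most 3 called genes with the largest rise and 3 with the largest fall at 500 nM per line, given 5 CPM or more on average in the higher group and over 3 counts in every library. The text gives some of these, and a few others are not reported here. For each factor the 2 genes with the highest Pearson r were taken. The factors and the lists were chosen with earlier results of these data known. Promoters are RefSeq's and exons GENCODE's, both on GRCh38, and no coordinates were joined to the tables.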

Additional observations from a re-analysis of the deposited data

Results flagged for a closer look

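The change with JIB-04 differed between the lines, by the test of the difference itself, for these factors. The values are the log2 change against DMSO in OCI-Ly1 less the same change in TMD8, from edgeR fitted to 18 libraries. At 500 nM they were 1.62 for IRF4, 0.57 for PAX5, 0.41 for EBF1, -0.60 for PRDM1, -0.42 for SPIB, -0.27 for IKZF3 and -0.23 for BCL6. At 150 nM they were 0.39 for IKZF1, 0.36 for IRF4, -0.72 for PRDM1 and -0.29 for SPIB. For IRF4 and PAX5 at 500 nM, all 3 treated libraries lay above all 3 DMSO libraries in OCI-Ly1 and below them in TMD8. The PRDM1 values rest on 26 to 59 counts per library in OCI-Ly1. Groups of 3 libraries were not tested for a single value standing apart. The first DMSO library of TMD8, which differed most from others of its group, enters each of these differences, and without it all 11 kept their sign and call.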

How the results depend on the processing

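At 500 nM against DMSO, IRF4, IKZF1 and IKZF3 in both lines, PAX5 in TMD8, and EBF1, BACH2 and SPIB in OCI-Ly1 kept direction and call in all 14 alternatives. Genes called at 150 nM in OCI-Ly1 numbered 139, against 240 with DESeq2, 323 without the low-count filter, 61 on log2(TPM + 1), 74 on log2(TPM + 0.1), 50 on the centred scale, 81 in a fit of the compared groups and 65 to 339 without 1 library. The factors called there were 1, and 0 on the TPM scales and in the fit of the compared groups, and 0 to 1 without 1 library. Between the doses in TMD8, 3 factors and 4409 genes were called. The counts were 5 and 4860 on the centred scale, and 5 and 4568 on log2(TPM + 0.1). The replicate block gave 207 genes and 1 factor at 150 nM in OCI-Ly1, and 8615 and 8 at 500 nM. In TMD8 at 500 nM it gave 9390 genes and 8 factors besides BACH2, whose call is set aside. For the difference between lines at 500 nM it gave 7888 and 8, where IKZF1 was added (0.18). Whether replicate numbers pair the libraries was not settled. Same-number correlations passed 0.1 in 2 of 9 pairs in each line. Those of different numbers did so in 0 of 18 pairs in OCI-Ly1 and 1 of 18 in TMD8.

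Signs turned as follows, in log2. Centred: BCL6 -0.030 and PRDM1 -0.16 between doses in OCI-Ly1, BCL6 -0.026 at 150 nM and SPIB -0.043 at 500 nM in TMD8, line differences at 150 nM of EBF1 0.057, POU2AF1 0.015 and BACH2 0.11, of BACH2 at 500 nM 0.30, and IKZF3 with DMSO 0.036. Library size: POU2AF1 0.036 at 150 nM and PRDM1 0.0037 between doses in TMD8, and the line difference of BCL6 at 150 nM -0.049. The line difference of EBF1 at 150 nM was 0.020 with DESeq2 and 0.0047 without the filter. On log2(TPM + 1) in TMD8, EBF1 was -0.019, BCL6 -0.12 and SPIB -0.047 at 150 nM, EBF1 -0.16, BCL6 -0.0063, PRDM1 -0.19 and SPIB -0.30 at 500 nM, and EBF1 -0.14 between doses. Line differences were 0.17 for EBF1, 0.13 for POU2AF1 and 0.22 for BACH2 at 150 nM, and 0.25 for BCL6, 0.070 for PRDM1, 0.062 for SPIB, 0.41 for POU2AF1, 0.75 for BACH2 and 0.20 for IKZF3 at 500 nM. IKZF3 with DMSO was 0.76. On log2(TPM + 0.1) the same values were -0.019, -0.13 and -0.047, then -0.16, -0.00624, -0.20 and -0.30, then -0.14 in TMD8. The line differences were 0.18, 0.13 and 0.096 at 150 nM, and at 500 nM 0.25 for BCL6, 0.056 for SPIB, 0.42 for POU2AF1, 0.57 for BACH2 and 0.21 for IKZF3, with IKZF3 at 0.77 with DMSO. The cause was not tested. Without 1 library, values crossed 0 for PAX5 at 150 nM in OCI-Ly1 (-0.038 to 0.077), PRDM1 between doses in OCI-Ly1 (-0.033 to 0.22) and in TMD8 (-0.022 to 0.0049), SPIB at 500 nM (-0.0057 to 0.12) and BCL6 at 150 nM in TMD8 (-0.022 to 0.071), and the line differences at 150 nM of EBF1 (-0.068 to 0.054) and BCL6 (-0.023 to 0.080). The median of all genes on log2(TPM + 1) was -0.22 in TMD8 and 0.10 in OCI-Ly1 at 500 nM. PRDM1 in OCI-Ly1 and BACH2 in TMD8 rest on few counts, which limits their changes.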
